A study of Mus musculus with 48 samples.

Results

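CD4+ T cells of subcutaneous tumors were compared with CD4+ T cells of the lymph nodes that drained those tumors (dLN), mouse by mouse. The 24 libraries of this comparison, of 48 in the series, were chosen by their labels: 16 came from tumors and 8 from dLNs, and the other 24 came from CD8+ T cells. Each of 4 female C57BL/6 mice (mice 5 to 8) had carried Lewis lung carcinoma (LLC), a mouse lung carcinoma line, on the left and the right side of the back for 13 days. Each tumor was cut into 2 fragments that were sequenced separately, and each dLN gave 1 library. No mouse had received a treatment, and the mice shared a single implanted line, so other tumors are not represented. The tumor cells were sorted as CD4+ without a CD44 gate, whereas the dLN cells were sorted as CD4+ CD44hi, which keeps antigen-experienced cells. Organ and CD44 gate therefore cannot be told apart in any comparison below. The files hold TCRβ sequences only, so no marker gene could be used to check the CD4 label.

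The TCRβ chain is assembled in the thymus by joining 1 V, 1 D and 1 J segment, with bases trimmed and added at the joints. The joint encodes CDR3, the loop that lies over the peptide, so that V and J usage describe the germline part of a repertoire and CDR3 length and residues describe the joint. A clone was defined by its V and J segments together with the bases of its CDR3. CD4+ T cells recognize peptides on MHC class II, and in tumors they include helper cells and Foxp3+ regulatory cells, which these sequences do not separate. Clones were weighted either by freq, the share of reads, in which a few expanded clones count most, or by distinct clones, in which each clone counts once. In such a bulk readout, more cells of a clone and more TCRβ RNA per cell cannot be told apart.

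The sequences below are the CDR3s of the tumor clone and the dLN clone with the most reads in each mouse (mean of the sides), which show what the usage values count. Capitals mark the bases between the end of the V segment and the start of the J segment, and the strand is the coding one.
Tumor, mouse 5, TRBV26 TRBJ1-1: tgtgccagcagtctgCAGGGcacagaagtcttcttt
Tumor, mouse 6, TRBV1 TRBJ2-7: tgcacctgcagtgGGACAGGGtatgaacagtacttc
Tumor, mouse 7, TRBV14 TRBJ2-5: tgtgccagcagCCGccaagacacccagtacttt
Tumor, mouse 8, TRBV13-2 TRBJ1-2: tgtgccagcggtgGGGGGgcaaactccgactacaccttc
dLN, mouse 5, TRBV13-2 TRBJ1-3: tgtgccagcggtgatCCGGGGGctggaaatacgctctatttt
dLN, mouse 6, TRBV23 TRBJ1-1: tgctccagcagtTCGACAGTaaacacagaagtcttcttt
dLN, mouse 7, TRBV13-2 TRBJ2-4: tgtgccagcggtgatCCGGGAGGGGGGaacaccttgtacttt
dLN, mouse 8, TRBV5 TRBJ1-2: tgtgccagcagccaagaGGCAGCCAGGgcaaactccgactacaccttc

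The leading tumor clones were far rarer in the nodes of the same mouse. The TRBV14 clone of mouse 7 took 6.36% (left) and 6.45% (right) of tumor reads, against 0.313% and 0.168% of dLN reads on the same sides. The TRBV1 clone of mouse 6 took 2.08% and 2.11% of reads in the tumors, against 0.00262% and 0.0158% in the dLNs. The leading tumor clones of mice 5 and 8 took 1.2% to 1.91% of tumor reads and 0.0112% to 0.159% of dLN reads. In the other direction, the leading dLN clones were also found in tumors. The TRBV23 clone of mouse 6 took 1.13% and 1.31% of dLN reads and 0.465% and 0.504% of tumor reads. The TRBV13-2 clone of mouse 5 took 0.713% and 0.598% of dLN reads and a larger share, 0.940% and 0.978%, of tumor reads. Since these clones were picked for their abundance, their values are a description.

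Deposited reads ranged from 411355 to 3041083 per tumor fragment and from 326582 to 1222582 per dLN. For counts of clones, reads were drawn at random to 6 per sorted cell, which left 3587 to 11931 clones per tumor fragment and 10740 to 19246 per dLN. A single drawn read stood for 0.000111% to 0.000763% of a tumor library and 0.000294% to 0.000591% of a dLN library. The mouse labels held: 68.3% to 74.4% of tumor reads lay in clones found in dLNs of the same mouse, against 2.34% to 5.08% for dLNs of the other mice. Clones at least 10 times more frequent in the CD8+ library of the same mouse, organ and side took 0.0% to 0.154% of reads in tumor and 0.00165% to 0.00787% in dLN libraries.

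Reads were concentrated on fewer clones in tumors than in dLNs in all 4 mice. Clones of at least 0.1% of a library took 44.6%, 37.0%, 43.7% and 37.1% of reads in the tumors of mice 5, 6, 7 and 8. In the dLNs they took 17.1%, 8.94%, 10.7% and 10.1%. Every tumor lay above every dLN. The means were 40.6% ± 4.09 (SD, n = 4 mice) in tumors and 11.7% ± 3.68 in dLNs, and the difference gave p = 0.0286 in the two-sided exact permutation test over 70 divisions of the 8 values, the smallest p this test can give, and 0.0347 after Benjamini-Hochberg adjustment over 17 summary values. This test does not use the pairing by mouse. With the mouse as a block, by exact permutation over 16 sign changes, whose smallest p with 4 mice is 0.13 when rounded, none of the 14 summary values that passed kept its call, and each of them, here and below, had adjusted p = 0.142. The 10 most abundant clones took 9.47%, 8.23%, 22.9% and 7.98% of tumor reads and 4.59%, 4.04%, 3.72% and 3.61% of dLN reads. Mouse 7 stood apart here, with its TRBV14 clone among the leading 10, and the difference of 8.15 percentage points was 4.48 without it. The exact permutation test gave the same adjusted p of 0.0347 for this share, for the share of the 100 most abundant clones (34.7% ± 5.13 against 15.0% ± 2.56, n = 4 mice) and for clonality, an index from 0 for even clones to 1 for a single clone (0.170 ± 0.0463 against 0.0852 ± 0.00705). At an equal depth of 131070 reads, a tumor fragment held 6981 ± 1944 (SD) clones and a dLN 13717 ± 2269, lower in the tumors of 4 of 4 mice (adjusted p = 0.0347, exact permutation test). A fragment is only a portion of a tumor, so this number does not compare whole organs.

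**Figure D1:**
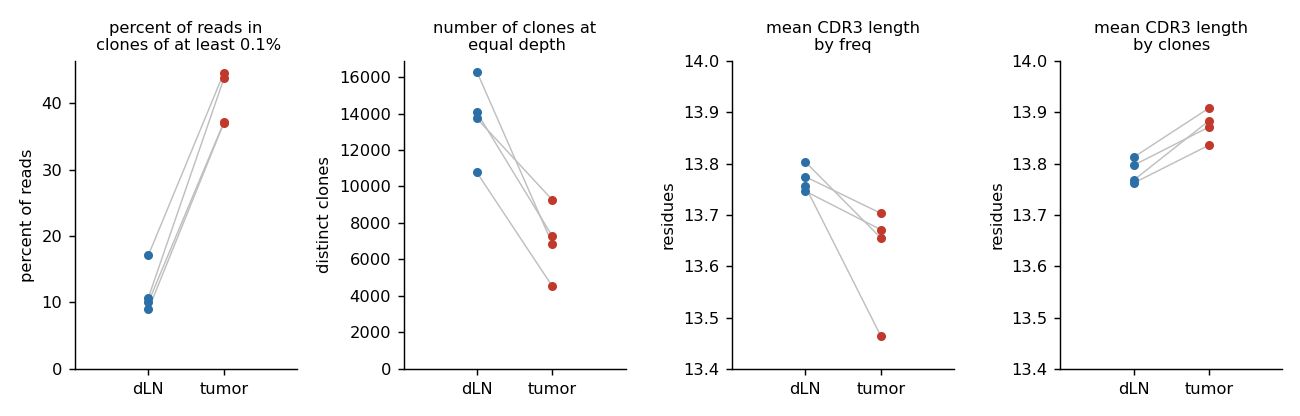
Summary values per mouse in dLN (blue) and tumor (red), with gray lines joining the organs of 1 mouse; the y axes give the percent of reads in clones of at least 0.1%, the number of distinct clones at equal depth, and the mean CDR3 length in residues by freq and by distinct clones (length axes do not start at 0). Mean length lies lower in tumors by freq and higher by clones in all 4 mice.

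By reads, 6 of 22 V segments tested (27.3%) differed between tumor and dLN in limma with the mouse as a block (adjusted p threshold 0.05): 1 was higher in tumors (4.55%) and 5 were lower (22.7%). TRBV29, which encodes Vβ7, took 2.66%, 3.62%, 2.40% and 3.23% of reads in the tumors of mice 5 to 8 and 1.76%, 1.88%, 1.9% and 2.3% in the dLNs. The tumors lay above the dLNs without overlap, with a log2 difference of 0.59 ± 0.13 (SE; adjusted p = 0.0223, limma). TRBV5 took 5.76%, 5.32%, 5.37% and 5.17% of tumor reads and 8.88%, 8.93%, 8.96% and 9.62% of dLN reads. All tumors lay below all dLNs, and this difference, -0.75 ± 0.09 on the log2 scale (adjusted p = 0.00313, limma), was among the most even across mice. TRBV12-1 fell the most, from 1.89% ± 0.225 (SD, n = 4) of dLN reads to 0.895% ± 0.215 of tumor reads (log2 -1.1). TRBV13-3, TRBV2 and TRBV31 fell by 0.48, 0.47 and 0.47 on the log2 scale, again with every mouse lower in the tumor. TRBV2 did not pass in edgeR (adjusted p = 0.0695) or on the right side alone (0.0784, limma), and TRBV31 not with no filter on low values, on the right side alone or without mouse 7 (0.0518, 0.106 and 0.0716, limma). The segments with the most tumor reads were TRBV1 and TRBV13-2. TRBV1 took 16.2% ± 2.74 of tumor reads and 13.1% ± 0.921 of dLN reads and TRBV13-2 took 14.2% ± 0.204 and 11.9% ± 0.803, both higher in tumors of 4 of 4 mice but short of the threshold in limma (adjusted p = 0.0882 and 0.102) and past it in edgeR (adjusted p = 0.0186 for both), which called 3 V segments higher and 4 lower. TRBV3 followed with 7.71% of tumor and 8.68% of dLN reads. The calls for single segments were fragile to the number of mice: 2 segments, TRBV12-1 and TRBV5, passed without mouse 5 or without mouse 6, and TRBV29 had adjusted p = 0.0846 and 0.0819 there (limma).

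By distinct clones, the difference in V usage was broader, and 15 of 22 segments (68.2%) differed: 5 were higher in tumors (22.7%) and 10 were lower (45.5%). TRBV29 took 4.37%, 5.72%, 5.87% and 5.70% of tumor clones in mice 5 to 8, against 1.85%, 1.94%, 1.92% and 2.04% of dLN clones. That is 2.8-fold higher on average, with a log2 difference of 1.47 ± 0.07 (SE; adjusted p = 1.3e-15, limma, whose spread is pooled over the 22 segments). Mouse 5 had the smallest share among tumors and was still above every dLN. TRBV13-2, a Vβ8 segment, took 15.0%, 17.2%, 17.5% and 17.4% of tumor clones and 11.5%, 11.4%, 11.8% and 11.4% of dLN clones (log2 0.54 ± 0.07, adjusted p = 8.14e-08, limma). TRBV24 rose from 0.276% to 0.432% of clones and TRBV17 from 1.18% to 1.69%, while TRBV13-1, also Vβ8, moved only from 5.76% to 6.48% (log2 0.17). TRBV24 is annotated as a pseudogene and TRBV17 as a gene on GRCm38.

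Segments that lost clones in the tumor were led by TRBV12-1. It took 1.54%, 1.70%, 1.54% and 1.63% of tumor clones and 2.91%, 2.27%, 2.74% and 3.03% of dLN clones. The tumors of the 4 mice were closer to each other than the dLNs were, and all lay below them (log2 -0.76 ± 0.08, adjusted p = 4.94e-09, limma). TRBV31 fell from 6.11% ± 0.348 to 3.96% ± 0.266, TRBV4 from 3.94% to 2.94%, TRBV5 from 8.43% to 6.30%, TRBV2 from 3.86% to 3.04% and TRBV3 from 9.86% to 8.06% of clones, each lower in 4 of 4 mice without overlap. TRBV14, TRBV13-3, TRBV26 and TRBV23 fell by 0.22, 0.15, 0.16 and 0.18 on the log2 scale. These were not all lower in every mouse, and TRBV23 was lower in only 2 of 4. TRBV1, next to TRBV13-2 in its share of tumor clones, took 8.69% ± 0.396 against 8.01% ± 0.154 and did not pass in limma (adjusted p = 0.102) but passed in edgeR (adjusted p = 0.0332).

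**Figure D2:**
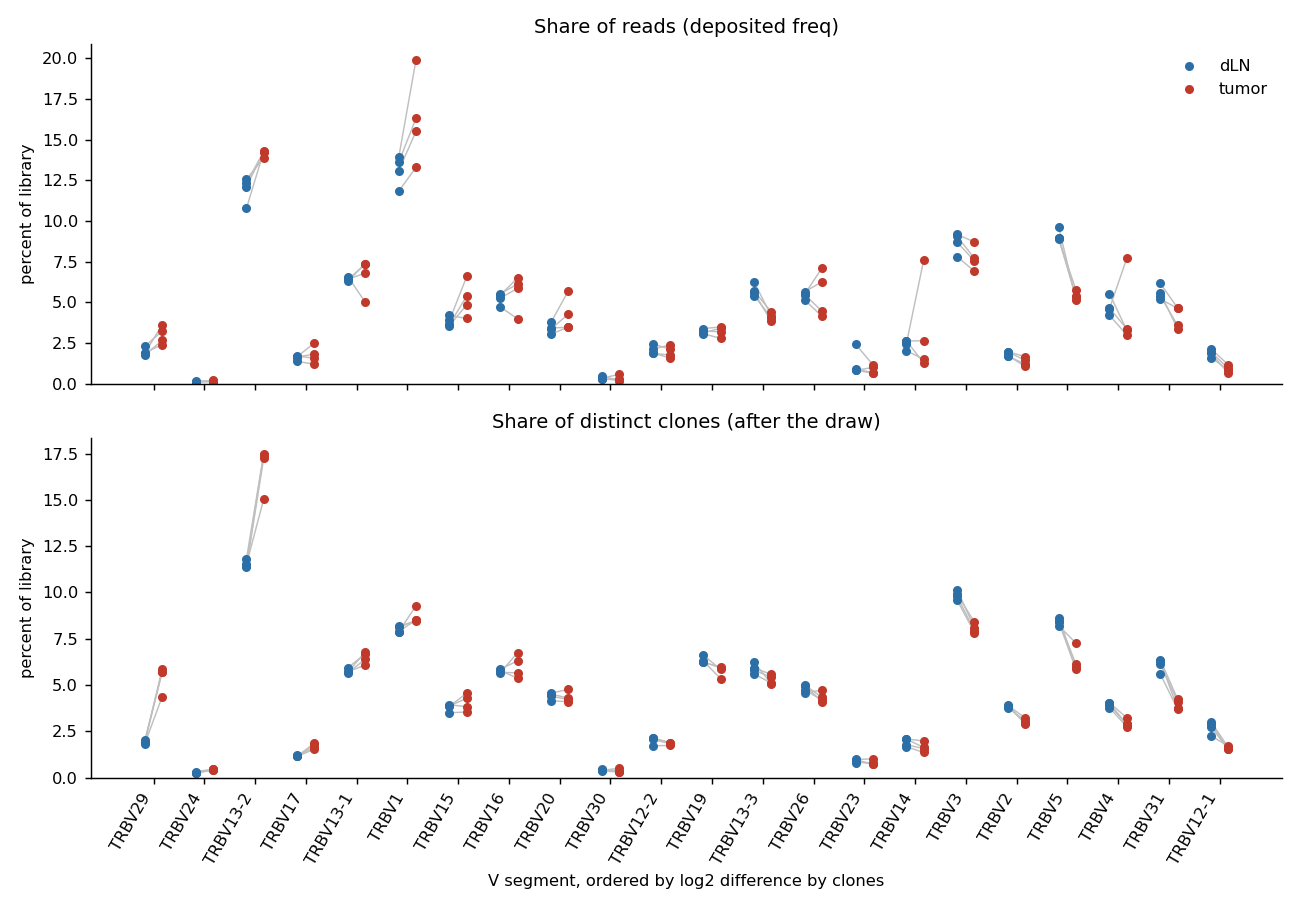
V segment usage of CD4+ T cells in dLN (blue) and tumor (red), 1 point per mouse with gray lines joining the organs of a mouse; the y axis is the percent of reads (upper) or of distinct clones (lower), and the 22 tested segments are ordered by their log2 difference by clones. TRBV29 and TRBV13-2 separate most clearly by clones, and TRBV5 separates in both panels.

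On the mouse genome (GRCm38 in the GENCODE vM21 annotation, looked up by symbol, since the build behind the files is not given in the sources used here), all 37 V and J segments of the files lie on chromosome 6. TRBV29 is at chr6:41271394-41271881, TRBV13-2 at chr6:41121396-41121832, TRBV12-1 at chr6:41113550-41114067 and TRBV5 at chr6:41062332-41062803, all on the plus strand. TRBV31, at chr6:41557691-41558452, lies beyond the J segments on the minus strand. Along the chromosome, TRBV2, TRBV3, TRBV4 and TRBV5 are consecutive among the segments of the files and all fell by clones. Around TRBV13-2, which rose, TRBV13-3, the next segment after it, fell, and TRBV12-2, the one before it, did not pass.

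V segments known from natural killer T cells were followed as a fixed list, because these cells can be CD4+: TRBV13-1, TRBV13-2 and TRBV13-3 (Vβ8), TRBV29 (Vβ7) and TRBV1 (Vβ2). By clones 3 of the 5 rose and 1 fell, with a median log2 difference of 0.17 beside -0.13 over all segments tested, of which 22.7% rose and 45.5% fell. By reads 1 rose and 1 fell, where 4.55% and 22.7% of all segments did, with medians of 0.25 and -0.0093. Their summed share was 39.1% to 44.1% of tumor clones and 32.8% to 33.6% of dLN clones. The list also holds the most used segments of conventional CD4+ T cells, and the invariant α chain that defines natural killer T cells was not measured.

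TRBV29 gained more by clones than by reads, and its tumor clones were small. The ratio of its share of reads to its share of clones, which is 1 where its clones are of average size, was 0.409 to 0.633 in the tumors and 0.956 to 1.13 in the dLNs, without overlap. TRBV13-2 showed the same order less strongly, with 0.793 to 0.948 against 0.948 to 1.08. TRBV5, which fell by clones, showed this order too, with 0.793 to 0.890 against 1.04 to 1.14. So did TRBV13-3, with 0.706 to 0.861 against 0.914 to 1.02. Of the others that fell, TRBV31, TRBV4, TRBV3, TRBV14 and TRBV26 had higher mean ratios in tumors. TRBV12-1, TRBV19, TRBV2 and TRBV24 had low mean ratios in tumors (0.558, 0.559, 0.437 and 0.350) and in dLNs (0.692, 0.504, 0.476 and 0.455). TRBV1 had large clones in both organs, with a ratio of 1.56 to 2.14 in tumors and 1.5 to 1.77 in dLNs.

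Clones were then divided by size, in cell equivalents of 6 drawn reads, and by whether they were found in the other organ of the same mouse. These classes were added after the values above were seen and are described without a test. Among clones of 1 to under 5 cell equivalents, TRBV29 took 5.02%, 6.61%, 6.89% and 6.64% of tumor clones and 2.09%, 2.10%, 1.99% and 2.07% of dLN clones. Among clones of 5 to under 50 it took 4.15% ± 0.445 against 2.02% ± 0.220. Among clones of 50 or more, of which a tumor fragment held 248 ± 119 and a dLN 51.2 ± 3.93, it took 2.19% ± 0.636 against 1.74% ± 1.07, and the organs overlapped. The excess of TRBV29 was thus seen in small and middle-sized clones. Clones of 50 or more were too few to show whether it was absent among them.

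Clones found in both organs are the same clones seen from each side, so a segment with a larger share in tumors is bound to show its excess mainly among clones that were not shared, and the values by this division are a description. Tumor clones absent from both dLNs of the mouse made up 66.9% ± 3.28 of the clones of a fragment and 29.4% ± 3.02 of its drawn reads. TRBV29 took 5.87%, 7.82%, 7.46% and 7.42% of these clones in mice 5 to 8. It took 1.71%, 1.85%, 1.95% and 2.01% of the tumor clones that were found in a dLN. The latter lie at the level of dLN clones not found in the tumors, 1.87% to 2.01%. In tumor clones of 5 to under 50 cell equivalents, TRBV29 took 6.43% ± 0.948 of those not found in the dLNs and 2.05% ± 0.159 of those found. In clones of 50 or more, only 27.8 ± 14.4 per fragment were not found in the dLNs, and the TRBV29 share ranged from 0.0% to 10.2% over mice. Whether a clone is found depends on how many cells of the node were sequenced, and CD44lo cells of the node were not sorted.

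TRBV13-2 and TRBV12-1 gave other patterns by the same division. TRBV13-2 took 18.7% ± 1.51 of tumor clones not found in the dLNs, 13.0% ± 0.481 of tumor clones found there and 11.1% ± 0.117 of dLN clones not found in the tumors. TRBV12-1 took 1.84% ± 0.13, 1.13% ± 0.138 and 3.15% ± 0.437 in the same order, so clones seen in both organs held the least of it. TRBV1 went the other way, with 7.74% ± 0.335, 10.6% ± 0.509 and 7.36% ± 0.250.

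**Figure D3:**
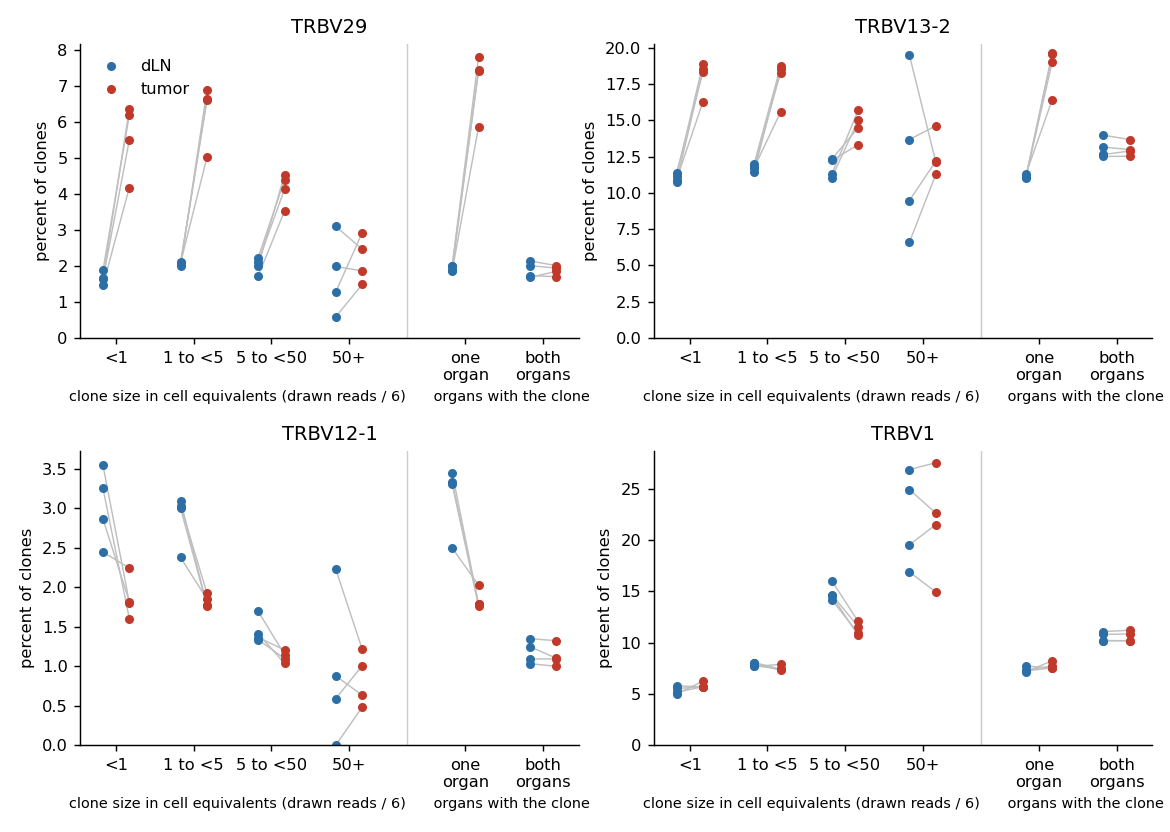
Share of distinct clones that used TRBV29, TRBV13-2, TRBV12-1 or TRBV1 (y axis, percent of the clones in a class) by clone size in cell equivalents and by whether the clone was found in 1 or both organs of the mouse; blue is dLN, red is tumor, and lines join the organs of a mouse (n = 4). TRBV29 in tumors is above dLN in each class under 50 cell equivalents and in clones of 1 organ, and level with it in clones of both organs.

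J usage by reads did not differ in any of 12 segments (0.0% called by limma, 0 by edgeR, 1 at an unadjusted p under 0.05). The most used J segments in tumors were TRBJ2-7, with 17.9% ± 0.674 of tumor reads against 18.6% ± 0.895 of dLN reads, TRBJ2-4 (13.2% ± 3.86 against 11.4% ± 1.33) and TRBJ2-5 (11.9% ± 2.92 against 12.5% ± 0.494). Mouse 7 stood apart among tumors, with 16.3% of reads in TRBJ2-5, the J segment of its leading clone, against 9.88% to 10.8% in the other mice. Without mouse 7, TRBJ2-5 was lower in tumors (log2 -0.25, adjusted p = 0.0288, limma) and 2 segments passed in all.

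By distinct clones, 7 of 12 J segments (58.3%) differed, 3 higher (25.0%) and 4 lower (33.3%), all by small amounts. TRBJ1-5 took 3.65%, 3.48%, 3.51% and 3.25% of tumor clones and 3.0%, 3.13%, 2.87% and 2.74% of dLN clones. It was higher in every tumor, with a log2 difference of 0.24 ± 0.03 (SE; adjusted p = 2.53e-07, limma). The fit pooled the spread and gave all 12 segments the same SE. The SE and adjusted p of a J segment here thus do not measure its own spread over mice. TRBJ2-1 rose from 9.42% ± 0.108 to 10.6% ± 0.104 and TRBJ1-2 from 5.27% ± 0.121 to 5.91% ± 0.569, the latter in 3 of 4 mice and not without mouse 7 or with no replicate block (adjusted p = 0.163 and 0.0603, limma). TRBJ2-5 fell from 13.2% ± 0.131 to 11.7% ± 0.309, TRBJ2-3 from 8.99% ± 0.212 to 8.09% ± 0.345 and TRBJ2-2 from 6.05% to 5.67%. TRBJ1-6 fell from 3.23% to 3.05%, a difference that no longer passed without mouse 6, 7 or 8 (adjusted p = 0.0772, 0.0931 and 0.0619, limma), nor in edgeR (0.106), with no replicate block (0.159) or on the left or right side alone (0.208 and 0.0657). TRBJ2-2 did not pass without mouse 6 or on the right side alone (0.0772 and 0.0657, limma). TRBJ2-7, the most used, did not pass (19.3% against 18.8%), and TRBJ2-4 was not among the segments called.

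Of 229 V-J pairs tested by reads, 5 differed (2.18%), and all 5 were lower in tumors. They were TRBV12-1 with TRBJ1-3 and TRBJ2-7, TRBV31 with TRBJ1-1, and TRBV5 with TRBJ2-3 and TRBJ1-5. The largest, TRBV12-1 TRBJ1-3, took 0.0352%, 0.0396%, 0.0161% and 0.0261% of tumor reads and 0.117%, 0.116%, 0.114% and 0.124% of dLN reads (log2 -1.74 ± 0.28, adjusted p = 0.0384, limma). The pairs with the most tumor reads were TRBV1 TRBJ2-4 (2.40% ± 0.808 against 2.01% ± 0.607), TRBV1 TRBJ2-7 (2.39% ± 0.930 against 1.89% ± 0.461) and TRBV3 TRBJ2-7 (2.18% ± 1.09 against 2.07% ± 0.401). Each of them differed by less than the SD of its tumor values. None of the 5 pairs called passed without mouse 5, 6, 7 or 8, and the 2 pairs that passed without mouse 8 were not among these 5. None of the 5 passed on the left side alone (each adjusted p = 0.0596, limma), 4 of them, all but TRBV12-1 TRBJ1-3, did not with no replicate block, and TRBV12-1 TRBJ1-3 and TRBV5 TRBJ1-5 did not in edgeR (0.0547 and 0.0502). On the right side alone, TRBV5 TRBJ1-5 did not pass either (adjusted p = 0.0650, limma).

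By distinct clones, 88 of 231 V-J pairs differed (38.1%), 34 higher in tumors (14.7%) and 54 lower (23.4%). By V segment, all 12 TRBV29 pairs were higher, with log2 differences of 1.02 to 2.27. The greatest was TRBV29 TRBJ1-2, which took 0.576%, 0.697%, 0.657% and 0.601% of tumor clones and 0.119%, 0.141%, 0.0913% and 0.147% of dLN clones, 5.08-fold higher on average (adjusted p = 1.19e-05, limma). TRBV29 with TRBJ1-3, TRBJ2-2, TRBJ2-3 and TRBJ1-4 rose by 1.77, 1.69, 1.64 and 1.41 on the log2 scale. TRBV13-2 had 9 of 12 pairs higher and TRBV17 7 of 10, with none lower. TRBV31 had 11 of 12 pairs lower, TRBV12-1 9 of 11, TRBV4 8 of 12 and TRBV5 7 of 12, with none higher. TRBV12-1 TRBJ1-6 fell the most, from 0.141% ± 0.0199 to 0.0436% ± 0.0134 of clones (log2 -1.51 ± 0.18). The pairs with the most tumor clones, TRBV13-2 with TRBJ2-7, TRBJ2-5 and TRBJ2-1, all rose (log2 0.61, 0.34 and 0.76), but TRBV13-2 TRBJ2-5 did not pass without mouse 6, 7 or 8 (adjusted p = 0.123, 0.144 and 0.122, limma), nor with no filter, on the left or right side alone or in clones of at least 4 drawn reads (0.0663, 0.0858, 0.0807 and 0.0677). The total was 49 without mouse 6 and 45 without mouse 7. TRBV12-2, TRBV15, TRBV16 and TRBV20 had no pair called, and TRBV13-3 had 1 higher and 3 lower. By J segment every one had pairs called in both directions. TRBJ1-5 had 3 higher and 2 lower, TRBJ2-1 had 4 and 3, TRBJ2-7 had 5 and 5, and TRBJ2-5 had 2 and 9.

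**Figure D4:**
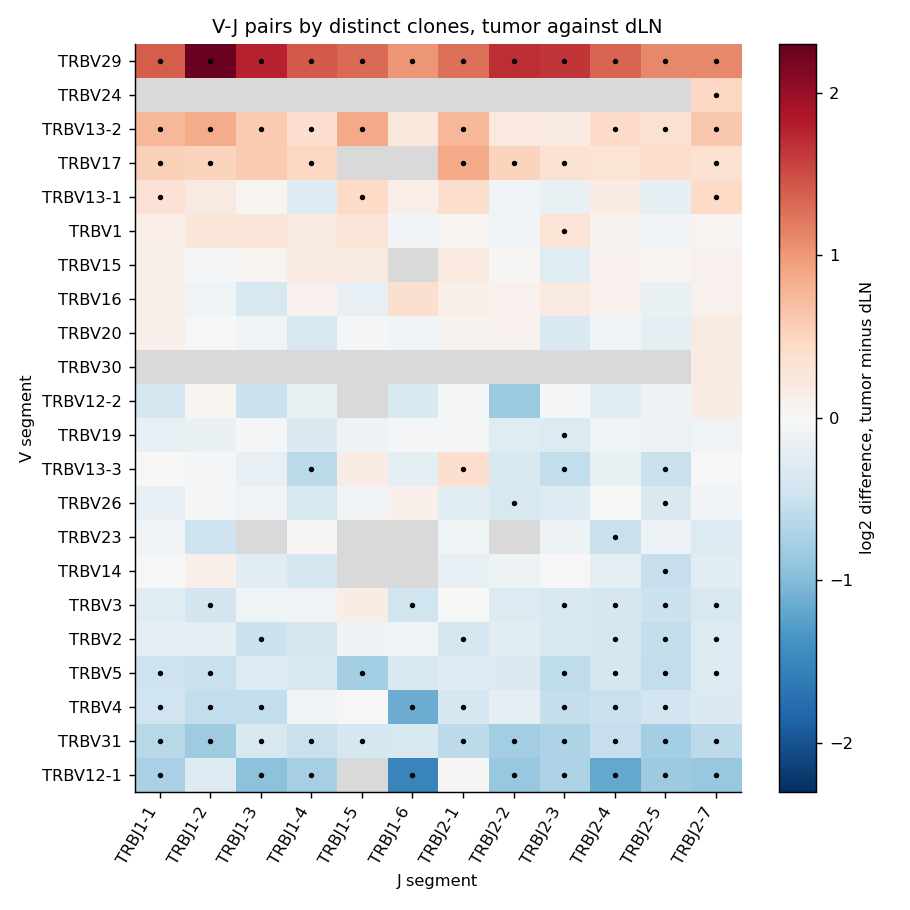
Log2 difference (tumor minus dLN) of each V-J pair by distinct clones, with V segments as rows in the order of their own difference and J segments as columns; black points mark pairs past the threshold and gray marks pairs not tested. The TRBV29 row is higher at all 12 J segments, and the TRBV31 row is lower at 11 of 12.

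CDR3 length moved in opposite directions by reads and by clones. By reads, mean CDR3 length was 13.70, 13.66, 13.46 and 13.67 residues in the tumors of mice 5 to 8 and 13.77, 13.80, 13.76 and 13.75 in the dLNs. Tumors were shorter in every mouse (means 13.62 ± 0.108 and 13.77 ± 0.0252, adjusted p = 0.0347, exact permutation test). The difference was largest in mouse 7, whose leading tumor clone has 11 residues. By distinct clones the mean was 13.84, 13.91, 13.87 and 13.88 residues in tumors and 13.76, 13.81, 13.80 and 13.77 in dLNs. Tumors were longer in every mouse (13.87 ± 0.0301 against 13.78 ± 0.0239, adjusted p = 0.0347, exact permutation test). The bases between the V and J ends, which hold the D segment and added bases, moved with length: 8.79 ± 0.181 in tumors against 9.11 ± 0.0484 in dLNs by reads, and 9.40 ± 0.0517 against 9.23 ± 0.0406 by clones. By reads mouse 7 again differed most, with 8.54 bases in tumors and 9.07 in dLNs.

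The size classes held both directions. In tumors, mean length was 13.94 ± 0.0171 residues in clones under 1 cell equivalent and 13.62 ± 0.0359 in clones of 50 or more. In dLNs the same classes had 13.81 ± 0.0434 and 13.84 ± 0.165, the latter from few clones per dLN. The classes in between are not given here, so these values do not show how length changed with size in dLNs. Tumor clones not found in the dLNs averaged 13.94 ± 0.0418 residues and those found 13.75 ± 0.0211.

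Of 10 lengths tested by reads, none differed in limma (0.0% called, 2 at an unadjusted p under 0.05), while edgeR called 2. CDR3s of 11 residues took 5.81%, 5.57%, 12.8% and 5.26% of tumor reads and 3.97%, 3.34%, 4.33% and 4.12% of dLN reads. They were higher in every tumor (adjusted p = 0.0773, limma), and mouse 7, whose leading clone has 11 residues, stood far above the others. Without mouse 5 the difference passed (log2 0.88, adjusted p = 0.0159, limma). CDR3s of 14 residues, the most common, took 26.9% ± 1.68 of tumor reads and 30.3% ± 0.840 of dLN reads (adjusted p = 0.248, limma). Lengths 12, 13, 15, 16 and 17 took 14.3%, 22.3%, 20.2%, 6.66% and 1.30% of tumor reads and 12.7%, 22.7%, 20.4%, 7.23% and 1.56% of dLN reads.

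By distinct clones, 5 of 10 lengths differed (50%): 3 were higher in tumors (30.0%) and 2 were lower (20%). CDR3s of 16 residues took 8.21%, 9.03%, 8.59% and 8.26% of tumor clones and 6.87%, 7.38%, 7.21% and 6.78% of dLN clones. The increase was alike in the 4 mice (log2 0.27 ± 0.01, adjusted p = 2.6e-04, limma). Those of 17 residues rose from 1.69% to 2.34% and those of 18 from 0.278% to 0.500%. Those of 13 residues fell from 23.0% ± 0.535 to 21.3% ± 0.607 of clones (adjusted p = 0.00195, limma). Those of 12 fell from 11.8% to 11.4%, a difference that did not pass without mouse 5, 6, 7 or 8 (adjusted p = 0.105, 0.0987, 0.0978 and 0.0766, limma). Nor did it pass with no replicate block, with no filter, on the left or right side alone or at equal depth (adjusted p = 0.0975, 0.0921, 0.0790, 0.256 and 0.0847, limma). Lengths 11, 14 and 15 took 3.94%, 29.9% and 21.1% of tumor clones and 3.98%, 30.6% and 20.6% of dLN clones, and did not pass. Length 14 passed as lower in edgeR, at equal depth and in clones of at least 4 drawn reads (adjusted p = 0.000443 in edgeR, and 0.0457 and 0.0353 in limma), and length 15 as higher in edgeR and in clones of at least 4 drawn reads (0.00651 and 0.0185). Length 11 was higher in tumors of 3 of 4 mice, against the sign of its mean, and passed as higher without mouse 8 (log2 0.054, adjusted p = 0.0378, limma).

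**Figure D5:**
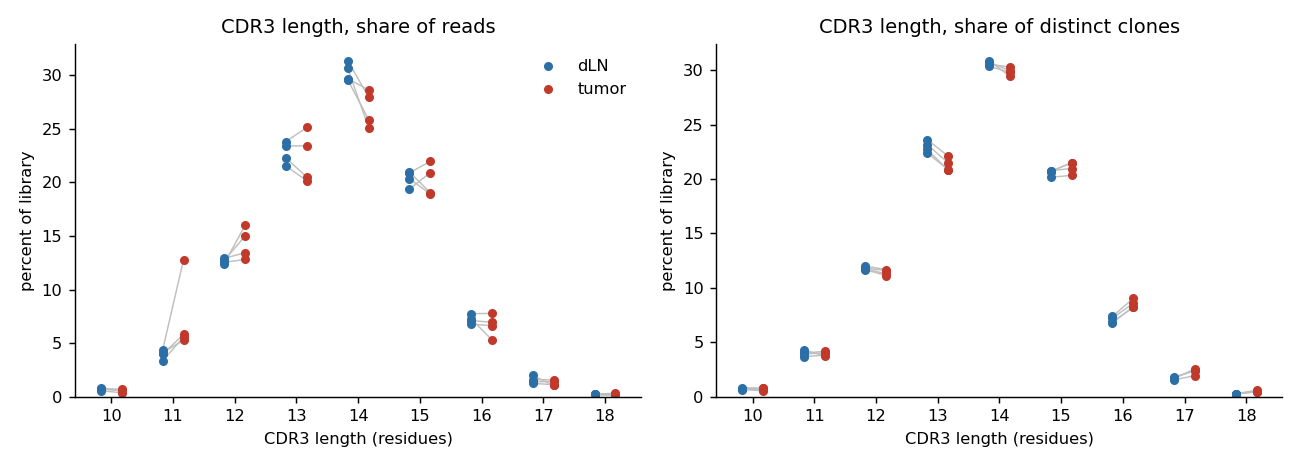
CDR3 length in residues (x axis) against percent of reads (left) or of distinct clones (right) in dLN (blue) and tumor (red), 1 point per mouse with lines joining the organs of a mouse. The point at 12.8% of reads for 11 residues is mouse 7; by clones the tumor points lie above the dLN points at 16 and 17 residues and below them at 13.

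The greater length of tumor clones was seen inside single J segments. Mean length by clones was longer in tumors within 11 of 12 J segments (91.7%, limma), from 0.06 residues in TRBJ2-7 to 0.25 in TRBJ1-5. Inside V segments it was longer in 5 of 22 (22.7%, limma) and shorter in none, with 8 at an unadjusted p under 0.05. By reads no J or V segment passed in either direction (limma; 1 at an unadjusted p under 0.05 in each class). TRBV12-1 clones averaged 13.92 residues in tumors and 13.59 in dLNs, and TRBV29 clones 14.05 and 13.81. This breakdown was also added after the overall lengths were seen.

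Residues were counted in the central CDR3, leaving out the first 4 and last 4 positions, which are mostly germline. By reads none of 19 residues tested differed (0.0% called by limma, 1 at an unadjusted p under 0.05), and 1 passed without mouse 7. By distinct clones 8 of 19 differed (42.1%), 5 higher in tumors (26.3%) and 3 lower (15.8%). Histidine took 0.914%, 0.912%, 0.870% and 0.870% of central residues in tumor clones and 0.710%, 0.658%, 0.694% and 0.724% in dLN clones. Its difference, log2 0.35 ± 0.03 (adjusted p = 5.45e-04, limma), was the largest, and histidine remained a rare residue. Tryptophan, tyrosine and alanine rose by 0.09, 0.09 and 0.07 on the log2 scale. Glutamine fell from 7.37% ± 0.0934 to 6.67% ± 0.166 and glutamate from 5.14% ± 0.0570 to 4.80% ± 0.0759, each lower in 4 of 4 mice. Phenylalanine was also higher and leucine lower, by less than 0.1 on the log2 scale. Among codons between the V and J ends only, a count added after seeing the data, 10 residues differed, 5 higher and 5 lower. Histidine differed by 0.34 and glutamine by -0.11 on the log2 scale (both adjusted p = 0.000886, limma). Tyrosine moved from 0.09 to 0.14 and glutamate from -0.10 to -0.06 with this count, each still past the threshold.

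Values over the whole central loop moved slightly. Net charge by clones was -0.453 ± 0.00603 in tumors and -0.469 ± 0.00752 in dLNs, higher in tumors of 4 of 4 mice (adjusted p = 0.0347, exact permutation test). By reads it was -0.377 ± 0.0751 against -0.457 ± 0.00454, with mouse 7 at -0.267 (adjusted p = 0.0347, exact permutation test), and the difference of 0.0798 was 0.0424 without mouse 7. Mean hydrophobicity on the Kyte-Doolittle scale was -1.12 ± 0.010 against -1.15 ± 0.00865 by clones (adjusted p = 0.0347, exact permutation test). By reads it was -1.06 ± 0.0714 against -1.11 ± 0.0115, which did not pass (adjusted p = 0.152, exact permutation test), and the difference of 0.0543 was 0.0339 without mouse 5 and 0.0876 without mouse 7, the mouse in which the tumor was lower (-1.16 against -1.11). Clones with hydrophobic residues at both CDR3 positions 6 and 7, a feature linked to self-reactive T cells, made up 1.1%, 1.38%, 1.33% and 1.36% of tumor clones and 0.933%, 0.982%, 1.02% and 1.02% of dLN clones. They were more frequent in tumors by clones (adjusted p = 0.0347, exact permutation test). Their share of reads, 1.05% ± 0.217 against 1.03% ± 0.152, differed by less than the spread between mice.

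CDR3s with a cysteine inside the loop took 16.4% ± 2.84 of tumor and 13.2% ± 0.922 of dLN reads (adjusted p = 0.0971, exact permutation test), and 8.96% ± 0.421 against 8.15% ± 0.138 of clones (adjusted p = 0.0347, exact permutation test). These shares track TRBV1, whose germline end places a cysteine inside CDR3, as in the leading tumor clone of mouse 6 above.

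V usage of a tumor was compared with the dLNs of its own and of other mice, as the share of reads or clones that would have to change segment. By reads this distance was 11.4% to 15.4% to the own dLN and 11.1% to 15.5% to dLNs of other mice. The ranges overlapped almost wholly, with means of 13.0% and 13.6%. The true pairing gave the lowest mean of all 24 pairings (one-sided exact permutation test, p = 0.042, the smallest possible), but only 2 of 4 tumors, those of mice 7 and 8, were nearest to their own dLN. By clones the means were 11.6% and 11.8%, with the same p and 1 of 4 tumors nearest to its own dLN. The difference between own and other mice moved from -0.627 to -0.418 by reads without mouse 8 and from -0.205 to -0.130 by clones without mouse 6. Between mice, dLNs differed by 3.77% to 6.13% of reads and tumors by 7.19% to 15.5%. By V-J pairs, all 4 tumors were nearest to their own dLN, at a mean of 21.7% of reads against 26.2% for the other mice (one-sided exact permutation test, p = 0.042).

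The differences between tumor and dLN were set against those of CD8+ T cells in the same mice, whose dLN cells were CD44hi as well. The log2 difference of CD4+ from CD8+ cells passed for 7 of 22 V segments by reads (31.8%) and 16 of 22 by clones (72.7%) in limma. TRBV29 by clones was higher in CD4+ tumors by 1.47 but not in CD8+ tumors, where it took 4.74% of tumor and 5.72% of dLN clones (log2 -0.27). The difference of the differences was 1.74 ± 0.07 (SE; adjusted p = 4.15e-34, limma, spread pooled over the 22 segments). TRBV13-2 by clones went from +0.54 in CD4+ to -0.12 in CD8+ cells (difference 0.66 ± 0.07), and TRBV12-1 from -0.76 to 0.13 (difference -0.89 ± 0.07). By reads, TRBV12-1 was lower in tumors of both (log2 -1.1 in CD4+ and -1.14 in CD8+ cells, difference 0.04 ± 0.46, adjusted p = 0.928, limma), and TRBV5 went from -0.75 in CD4+ to 1.1 in CD8+ cells (difference -1.85 ± 0.44, adjusted p = 0.00958, limma). By reads 3 segments passed without mouse 5, none without mouse 6, 6 without mouse 7 and 3 without mouse 8, while by clones 13 to 16 passed without 1 mouse.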

How the data were processed

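TCRβ libraries of CD4+ cells from 16 tumor fragments and 8 dLNs of 4 mice were analyzed, with 24 CD8+ libraries for contrast. The authors sorted cells after leaving out cells stained from the blood, made TCRβ cDNA (no molecular identifiers are described), trimmed reads (cutadapt 3.2 per the submitters' processing notes), assigned IMGT segments and corrected PCR errors with MiXCR, and deposited 1 clone table per library, in which the ends of V and J in CDR3 are positions. The deposited counts are reads per clone and were not normalized. The deposited freq is the fraction of the reads of a library. The genome build is not given in the sources used here. PCR reads are not independent molecules, so read numbers cover counting error only.

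Reads were drawn at random to 6 per sorted cell, using the numbers of sorted cells that the study gives, before counting clones. Percent per library was averaged over the 2 fragments, then over sides, so that the mouse was the replicate (n = 4). Usage was tested with limma 3.58.1 in R 4.3.3 on log2(percent + 0.01), with the mouse as a block, over features of at least 0.1% on average (0.05% for V-J pairs); folds of rare features are thus understated. The pairing comes from the labels: tumors and dLNs with 1 number are from the same mouse. Adjusted p-values are Benjamini-Hochberg values within a class of features. Summary values were tested by exact permutation without the pairing, and with the mouse as a block as an alternative. Named features were all V and J segments called (at most 8 per class by size), the 3 most used in tumors, the 6 V-J pairs and residues called with the largest differences, lengths 11 to 17 and the leading clone of each organ and mouse; other segments, pairs and lengths were named after their values were seen. The fits and exact tests were first tested on simulated data. Alternatives included edgeR 4.0.16, other pseudocounts and filters, 1 side, pooled fragments, equal depth and leaving out each mouse. The features and lists were chosen with earlier results of these data known.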

Additional observations from a re-analysis of the deposited data

Results flagged for a closer look

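A mouse far from the other 3 of its organ was looked for in 168 sets of 4 values by the gap to its nearest neighbor over the whole range (Dixon's test), which chance passes in about 1 set in 20; 13 were found. Mouse 7 gave 5 of them, all in tumors: TRBJ2-5 at 16.3% of reads (the others 9.88% to 10.8%), CDR3s of 11 residues at 12.8% (5.26% to 5.81%), the 10 most abundant clones at 22.9% of reads (7.98% to 9.47%), clonality at 0.239 (0.145 to 0.147) and TRBV13-2 at 13.9% of reads (14.3% in each of the others). Mouse 5 gave 3 in tumors by clones: TRBV29 at 4.37% (5.70% to 5.87%), TRBV13-2 at 15.0% (17.2% to 17.5%) and TRBJ1-2 at 5.07% (6.11% to 6.30%). It gave 2 in dLNs by clones, CDR3s of 15 residues at 20.2% (20.7% to 20.8%) and hydrophobicity at -1.16 (-1.14 in the others). TRBV1 took 9.28% of tumor clones in mouse 6 (8.46% to 8.52%). In mouse 8, TRBV5 took 9.62% of dLN reads (8.88% to 8.96%) and TRBV29 TRBJ2-2 took 0.154% of dLN clones (0.0835% to 0.0913%).

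The difference between tumor and dLN was itself different in CD4+ and CD8+ T cells for 4 of the named V segments by reads and 9 by clones (limma, difference of log2 differences). Over all segments tested, 7 of 22 (31.8%) passed by reads and 16 of 22 (72.7%) by clones. Without mouse 6, none passed by reads. Named segments that did not pass were TRBV12-1, TRBV13-3, TRBV31, TRBV13-2 and TRBV3 by reads and TRBV24 by clones. By reads the difference of differences was 2.3 for TRBV1, -1.36 for TRBV2, 2.24 for TRBV29 and -1.85 for TRBV5. By clones it was 0.21 for TRBV1, -0.89 for TRBV12-1, 0.66 for TRBV13-2, 0.41 for TRBV17, 1.74 for TRBV29, -0.42 for TRBV3, -0.42 for TRBV31, -0.26 for TRBV4 and -0.53 for TRBV5.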

How the results depend on the processing

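Counts by distinct clones were the steadier ones. The 46 named features that passed kept their direction under each alternative run, and lost their call in 72 of 731 fits, most often CDR3s of 12 residues by clones, in 9 fits, and TRBV5 TRBJ1-5 by reads, in 8. With no replicate block, 1 V-J pair by reads passed in place of 5, and all other counts stayed within 1.5 times. Over the fits without 1 mouse, calls ranged from 2 to 7 for V segments by reads, 0 to 2 for J segments by reads, 0 to 2 for V-J pairs by reads, 45 to 84 for V-J pairs by clones, 0 to 1 for lengths and for residues by reads, and 0 to 6 for the difference between CD4+ and CD8+ cells by reads (fits chosen after seeing the data). Without the 10 most abundant clones of each library, by reads 10 V segments, 5 J segments and 11 V-J pairs passed. V-J pairs by reads gave 17 calls with a pseudocount of 0.1, 14 with no filter, 0 on the left side, 8 with pooled fragments and 10 after the draw, and V-J pairs by clones gave 54 on the left side. Lengths by reads gave 1 call with a pseudocount of 0.1 and 2 in edgeR. With the replicate block (16 sign changes, which cannot reach the threshold with 4 mice), all 14 called summary differences lost their call: by reads clonality (0.0844), the 10 (8.15) and 100 (19.6) most abundant clones, clones of at least 0.1% (28.9), clones at equal depth (-6736), length (-0.147), net charge (0.0798) and bases between V and J (-0.313), and by clones length (0.0902), hydrophobicity (0.0220), net charge (0.0157), hydrophobic positions (0.301), inner cysteines (0.809) and bases between V and J (0.177).

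By clones, 4 summary differences no longer passed under 1 other alternative: hydrophobicity (0.0204) and net charge (0.0134) on the left side, hydrophobic positions 6 and 7 in clones of at least 4 drawn reads (0.301 percentage points) and inner cysteines on the right side (0.814). Hydrophobic positions by reads reversed on the left side (-0.103) and ranged from -0.0862 to 0.0843 without 1 mouse. Among named features that had not passed, 9 values changed sign. They were TRBJ2-4 by reads (-0.029) and CDR3s of 13 (0.00129) and 16 residues (0.052) by reads without the 10 most abundant clones, TRBV3 TRBJ2-7 by reads on the right side (0.033) and without mouse 5 (range without 1 mouse -0.275 to 0.194), CDR3s of 15 residues by reads without mouse 6 or mouse 8 (-0.058 to 0.026), and CDR3s of 11 residues by clones on the right side (0.018) and without mouse 8, where they also passed as higher (adjusted p = 0.0378, limma; -0.037 to 0.054). The causes were not tested. With 4 mice the exact tests cannot go below 0.0286, and a clone under 1 drawn read is not seen.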
